A study of Papio anubis with 28 samples.

Results

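The contractile apparatus of smooth muscle was followed through the bladder wall of olive baboons (Papio anubis) with 34 genes, chosen by symbol for their place in the machinery. A row of the deposited count table was found for 32 of them, out of 27533 genes in the table. MYH11 and SMTN were not analysed here. All 32 passed the filter on low counts, as did 17177 genes of the whole table. The thick filament and its switch count 5 genes, the light chains MYL9 and MYL6, the kinase MYLK, the phosphatase subunit PPP1R12B and the phosphatase inhibitor PPP1R14A. The thin filament counts 8, the actins ACTA2 and ACTG2, the tropomyosins TPM1 and TPM2, and the actin-binding CALD1, CNN1, TAGLN and LMOD1. Desmin (DES) and synemin (SYNM) form the intermediate filament, and 9 genes belong to dense bodies and dense plaques, the filamins FLNA and FLNC, vinculin (VCL), PGM5, SYNPO2 and the LIM-domain proteins PDLIM3, PDLIM7, CSRP1 and LPP. The membrane and its calcium handling count 6, the channel subunit KCNMB1, the calcium store protein CASQ2, caveolin (CAV1), the sarcoglycan SGCA, dystrophin (DMD) and the small heat shock protein HSPB6, and MYOCD and SRF are the 2 transcription factors.

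RNA sequencing covered 28 libraries from 14 animals, all labelled WT and urinary bladder, and each animal gave 1 library of grafted tissue and 1 of its own native bladder. Ileum was grafted in the 5 animals of the Entero arm. In the SIS arm (5 animals) and the PRS arm (4 animals) the bladder had been regenerated on a scaffold carrying primary bone marrow cells, mesenchymal stromal cells (MSC) with CD34+ haematopoietic stem and progenitor cells (HSPC), and the labels give those cells for the native libraries of these animals too. SIS and PRS are used here as the labels write them, and the sources used here do not state the age of the animals, the time since surgery or the depth of wall sampled. The 6 groups are thus Entero ileum graft and Entero native bladder, SIS regenerated and SIS native bladder, and PRS regenerated and PRS native bladder. No unoperated animal and no ungrafted ileum was analysed here. Below, values of a group are listed in the order of animals 1 to 5 (1 to 4 in the PRS arm), so that the first value of a graft and the first value of its native bladder come from 1 animal. In the Entero and SIS arms the sample codes carry F for animals 1 to 3 and M for animals 4 and 5. In the PRS arm they carry F for animals 1 and 2 and M for animals 3 and 4. The part of these letters in the values below was not tested.

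Smooth muscle shortens when a rise in calcium switches on myosin light chain kinase, which phosphorylates the regulatory light chain so that smooth muscle myosin can pull on actin filaments. The thin filaments are anchored in dense bodies inside the cell and in dense plaques at the membrane, and desmin filaments tie the anchors together. Most genes of this machinery carry binding sites for serum response factor, which acts with its muscle partner myocardin. In the bladder the detrusor, the muscle coat that empties the organ, holds most of this apparatus, while vessel walls hold some and urothelium, the lining, holds little.

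Total counts lay between 20975648 and 35669026 per library. All samples carry the tissue label urinary bladder, and the markers of the grafts labelled ileum were intestinal. CDX2, a transcription factor of intestinal epithelium, had 82.3 to 183 CPM (the count relative to the library total, scaled with TMM) in ileum grafts, against at most 0.561 CPM in any library of the other groups. UPK1A, a uroplakin of the bladder lining, had 0 to 6.09 CPM in ileum grafts, against 153 to 2259 CPM in Entero native bladder. MYOD1, which defines skeletal muscle, was at 0 in 27 of the 28 libraries. Mitochondrial protein genes took 14 to 33.9% of the counts in ileum grafts, against 6.8 to 10.5% in Entero native bladder.

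In level per length, a thin filament protein and the myosin light chains led the apparatus. Per kilobase of the gene length in the table, and as a median over the 28 libraries, TAGLN (transgelin, an actin-binding protein of smooth muscle) stood first at 5217 CPM per kilobase. It was followed by MYL9, the regulatory light chain, at 3463, by MYL6, the essential light chain, at 2027, and by TPM2, a tropomyosin, at 1504. ACTG2 (enteric smooth muscle gamma actin), CNN1 (calponin), CSRP1 (a LIM protein), ACTA2 (vascular smooth muscle alpha actin), TPM1 and DES (desmin) came next, between 1278 and 1005 CPM per kilobase. At the other end stood MYOCD, myocardin, at 4.93 and SGCA, a sarcoglycan, at 1.87 CPM per kilobase. Each of these genes varied between libraries by more than the distance between neighbours in that order, so the order of near neighbours is not firm. The order also rests on the deposited gene lengths, such as 516 bases for MYL9 and 5691 for DES. By median CPM without length, DES led at 5717 CPM, before FLNA at 4190 and TAGLN at 3464 CPM. The range over the 28 libraries was 30.2-fold for TAGLN and 48.5-fold for LMOD1. Together the 32 genes took between 0.723% and 14.2% of a library's counts.

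Desmin showed how wide the differences between animals of 1 group were. In the Entero arm DES had 4267, 1044, 40245, 17962 and 14686 CPM in ileum grafts, against 3726, 2837, 4437, 32653 and 6227 CPM in native bladder. In the SIS arm it had 11633, 17492, 3052, 3167 and 3728 CPM in regenerated tissue, against 5208, 4205, 11155, 33443 and 21507 CPM in native bladder. PRS regenerated tissue had 9165, 31035, 1681 and 1524 CPM of DES, against 27326, 28786, 2850.1 and 1144 CPM in PRS native bladder. In all 3 arms the graft and native values overlapped. Ileum library 3 held 38.6 times the DES of ileum library 2, the widest pair of the 28 and both of 1 group. The log2 fold change of DES, graft over native, was 0.65 (SE 0.99, adjusted p = 0.726) for ileum, -0.95 (SE 0.99, adjusted p = 1) for SIS and -0.47 (SE 1.10, adjusted p = 1) for PRS, by edgeR's quasi-likelihood test with Benjamini-Hochberg adjustment over all genes tested, as are all adjusted p-values below unless another tool is named.

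The smooth muscle actins followed the same libraries, with a difference between them in the ileum. ACTG2 had 2044, 386, 27699.7, 10178 and 9307 CPM in ileum grafts, against 1964, 1305, 2174, 16114 and 3438 CPM in Entero native bladder. It had 4979, 8816, 1988, 1415 and 2118 CPM in SIS regenerated tissue, against 2777, 2025, 7992, 19949 and 16041 CPM in SIS native bladder. It had 4127, 18573, 479 and 433 CPM in PRS regenerated tissue, against 11587, 16481, 1429 and 333 CPM in PRS native bladder. Graft and native values overlapped in every arm, and ileum library 3 was the highest of all 28. ACTA2 had 283, 695, 1435, 529.7 and 653 CPM in ileum grafts, against 1461, 662, 1253, 6349.8 and 2126 CPM in Entero native bladder. SIS regenerated tissue had 3507, 5056, 1118, 875 and 1462 CPM of ACTA2, against 2132, 1497, 3788, 8803 and 7747 CPM in SIS native bladder. PRS regenerated tissue had 2467, 9292, 791 and 503 CPM, against 5177, 6494, 1000.5 and 386 CPM in PRS native bladder. Here 4 of the 5 ileum grafts held 695 CPM or less, as did 1 Entero native library. The log2 fold change of ACTG2 was 0.99 (SE 1.08, adjusted p = 0.601) for ileum, -1.34 (SE 1.09, adjusted p = 1) for SIS and -0.34 (SE 1.2, adjusted p = 1) for PRS. For ACTA2 it was -1.72 (SE 0.81, adjusted p = 0.161) for ileum, -1.0 (SE 0.80, adjusted p = 1) for SIS and -0.00 (SE 0.88, adjusted p = 1) for PRS.

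The actin-binding genes were high and low in largely the same libraries as DES. TAGLN had 1322, 1796, 13279.5, 4880.4 and 6095 CPM in ileum grafts and 2197, 1163, 2292, 14118 and 3614 CPM in Entero native bladder. In the SIS arm regenerated tissue held 5752, 10404, 1905, 1864 and 2092 CPM of TAGLN and SIS native bladder 3315, 2319.7, 6635, 17246 and 11599.9 CPM. In the PRS arm regenerated tissue held 4246, 14430.1, 1157 and 826 CPM and PRS native bladder 9390.3, 13243, 1304 and 571 CPM. CNN1, which damps the activity of myosin on actin, likewise peaked in Entero native library 4 and SIS native library 4. CNN1 had 365, 199.6, 6209, 2168 and 1780.1 CPM in ileum grafts and 801, 552, 1027, 6296 and 1388 CPM in Entero native bladder. SIS regenerated tissue had 2129.9, 4192, 553, 565 and 797 CPM of CNN1 and SIS native bladder 967, 805, 2239.6, 5819.7 and 4932 CPM. For PRS, regenerated tissue was at 1633, 4924, 241 and 238 CPM and PRS native bladder 4468, 5085, 601 and 187 CPM. LMOD1, leiomodin, helps new actin filaments to form in smooth muscle. LMOD1 had 165, 22.9, 558, 222 and 194 CPM in ileum grafts and 207, 90.4, 130.2, 945 and 277 CPM in Entero native bladder. For SIS, LMOD1 was at 424, 294, 86.8, 78 and 117 CPM in regenerated tissue and SIS native bladder 172, 110.1, 301, 1002 and 808 CPM. For PRS, regenerated tissue was at 258, 1111, 69.5 and 45.6 CPM and PRS native bladder 784, 617, 125 and 36.8 CPM. Groups overlapped for all of TAGLN, CNN1 and LMOD1 in each arm, and none of the 3 passed the test in any graft against its native bladder.

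MYLK is the kinase that switches the myosin on. It had 908, 73.4, 2210.1, 1071 and 543 CPM in ileum grafts and 654, 228, 329, 2084 and 609.8 CPM in Entero native bladder. SIS regenerated tissue had 829.6, 716, 241, 138 and 317 CPM of MYLK and SIS native bladder 416, 202, 957, 2312 and 2721 CPM. For PRS, regenerated tissue was at 516, 3923, 77.7 and 47 CPM and PRS native bladder 1621, 1381, 232 and 66.8 CPM. The highest library, PRS regenerated library 2, held 83.4 times the MYLK of the lowest, PRS regenerated library 4, and both belong to 1 group. The log2 fold change of MYLK, graft over native, was 0.30 (SE 1.0, adjusted p = 0.890) for ileum, -1.56 (SE 1.02, adjusted p = 1) for SIS and 0.47 (SE 1.11, adjusted p = 1) for PRS.

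Among the 9 genes of dense bodies and plaques, all but CSRP1 lay below the smooth muscle actins in median level per length. FLNA, which cross-links actin and ties it to integrins, had a median of 519.8 CPM per kilobase, VCL 64.4 and SYNPO2, an actin-binding protein of the dense body, 47.3. Each of them ranged widely over the 28 libraries, by 25.1-fold for FLNA, 15.8-fold for VCL and 103-fold for SYNPO2. PGM5, a vinculin-associated protein of dense plaques, had 195 CPM per kilobase and a 39.8-fold range, and the LIM-domain proteins PDLIM3, PDLIM7 and LPP had 171, 66.7 and 17.9 CPM per kilobase. Graft over native, VCL had log2 fold changes of -0.72 for ileum, -0.92 for SIS and 0.58 for PRS, and SYNPO2 had -0.42, -1.33 and -0.09 in the same order of arms. Adjusted p-values for VCL were 0.516, 1 and 1, and for SYNPO2 0.845, 1 and 1.

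CASQ2, which stores calcium in the sarcoplasmic reticulum, had the smallest p of the 32 in 4 of the 12 comparisons made. It had 21.2, 0.652, 50.9, 8.13 and 20.1 CPM in ileum grafts, against 45.2, 44.5, 48.3, 303 and 76.7 CPM in Entero native bladder. For SIS, CASQ2 was at 58, 28.7, 26.4, 3.85 and 26.3 CPM in regenerated tissue, against 18.8, 15.9, 144, 285 and 243 CPM in SIS native bladder. In the PRS arm regenerated tissue held 53.8, 919, 1.62 and 1.74 CPM, against 195, 309.7, 47.9 and 3.7 CPM in PRS native bladder. Graft and native values overlapped in the 3 arms, and PRS regenerated library 2 stood far above the other libraries of its group. PPP1R14A, which holds back the phosphatase that relaxes smooth muscle, had 21.4, 18.5, 406, 109 and 136 CPM in ileum grafts, against 62.2, 34.4, 58.1, 479.5 and 87.6 CPM in Entero native bladder. For SIS, PPP1R14A was at 89.2, 131, 44.1, 33.8 and 39.9 CPM in regenerated tissue, against 95.4, 61.4, 134, 444 and 259 CPM in SIS native bladder. For PRS, regenerated tissue was at 76.9, 185, 22.3 and 14.4 CPM, against 233, 255, 38.2 and 18 CPM in PRS native bladder. Its groups overlapped as well. DMD, dystrophin, had 35.8, 239.8, 22.2 and 17.4 CPM in PRS regenerated tissue, against 86.7, 65.5, 20.5 and 12.2 CPM in PRS native bladder, and 33.2, 10.3, 49.4, 24.4 and 13 CPM in ileum grafts, against 33.8, 25.9, 20.1, 87.7 and 34.6 CPM in Entero native bladder.

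The transcription factors moved over these libraries as well. MYOCD had 14.8, 0.602, 18.3, 14.6 and 4.39 CPM in ileum grafts and 10.3, 8.48, 11.5, 68.3 and 14.4 CPM in Entero native bladder. In the SIS arm regenerated tissue held 19.8, 16.6, 6.41, 3.79 and 9.3 CPM of MYOCD and SIS native bladder 9.62, 2.23, 23.7, 76 and 64.9 CPM. In the PRS arm regenerated tissue held 15.8, 135, 1.26 and 0.789 CPM and PRS native bladder 37.6, 41, 7.21 and 1.36 CPM. Entero native library 4, SIS native libraries 4 and 5 and PRS regenerated library 2 stood highest, the libraries that also led for DES in their groups. SRF, serum response factor, is expressed in most cell types and had a narrower range. It had 54, 19.9, 176, 65.1 and 67.6 CPM in ileum grafts and 49.5, 50.9, 55, 143 and 71.6 CPM in Entero native bladder. In the SIS arm regenerated tissue held 94.9, 69.2, 45.1, 46.9 and 62.5 CPM of SRF and SIS native bladder 62.3, 44.8, 90.6, 186 and 165 CPM. In the PRS arm regenerated tissue held 80.6, 201, 32.2 and 26.5 CPM and PRS native bladder 138, 229, 52.4 and 36 CPM. The range over the 28 libraries was 11.5-fold for SRF and 224-fold for MYOCD. The lowest MYOCD level rested on 12 reads, against at least 397 reads for SRF, so counting error adds to the range of MYOCD. Neither gene passed the test in any arm, with log2 fold changes of MYOCD of -1.10 for ileum, -1.66 for SIS and 0.81 for PRS and adjusted p-values of 0.558, 1 and 1.

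**Figure D1:**
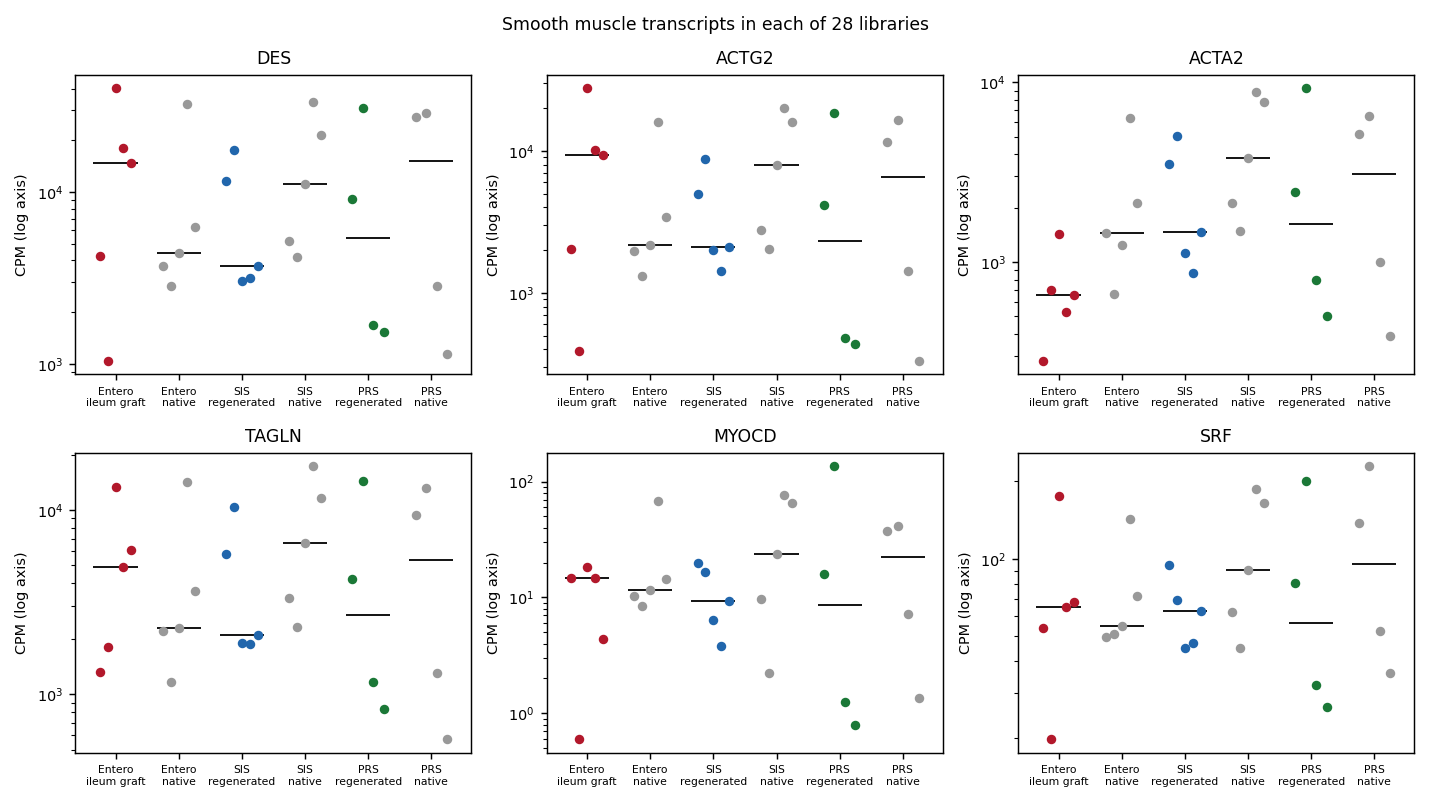
Level of 6 genes in each of the 28 libraries, in CPM on a log axis, by group; each point is 1 library (animals run from left to right within a group) and the bar is the group median. Within every group the points spread over several-fold to over 10-fold for DES and ACTG2, and each graft overlaps its native bladder.

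The genes of the apparatus went up and down together between libraries. In Entero native bladder, library 4 was the highest of the 5 for 32 of the 32 genes. In PRS regenerated tissue, library 2 was the highest of the 4 for 32 of 32. SIS native library 2 was the lowest of its group for 32 of 32, with library 4 the highest for 26 and library 5 for 6. PRS native library 4 was the lowest for 32 of 32. Among ileum grafts library 3 was the highest for 30 genes and library 2 the lowest for 29. In SIS regenerated tissue libraries 1 and 2 were the highest for 17 and 15 genes, and library 4 the lowest for 24.

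This shared rise and fall was large beside that of other genes. The spread of a gene was taken as the pooled standard deviation (SD) of log2(CPM + 0.5) between libraries within the 6 groups. Its median was 1.57 over the 32 genes, against 0.638 over all genes tested. For 26 of the 32 the spread lay above the 90th percentile of all genes tested, and the lowest, for SRF, lay at the 79 percentile. SYNM, synemin, an intermediate filament protein that pairs with desmin, and CASQ2, a calcium-storing protein of the sarcoplasmic reticulum, had the widest spreads, both 2.37.

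When each gene was set against the mean log2 level of the other 31 in the same library, most of that spread was gone. The median SD of this relative level was 0.503, and for 26 of the 32 genes it was under 50% of the gene's own spread. TPM1, a tropomyosin that lies along the actin filament, kept closest to the rest, with an SD of 0.186 for its relative level and 1.49 for its plain level. FLNA (filamin A, an actin cross-linker) had a relative SD of 0.197, CSRP1 0.231 and LMOD1 0.239. CASQ2 at 1.14, SYNM at 1.03 and SGCA at 0.897 departed most. SGCA had few reads, at most 14.5 CPM, so counting error adds to its value. The mean of the 32 genes itself had a within-group SD of 1.5 on the log2 scale, with Entero and scaffold arms pooled.

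**Figure D2:**
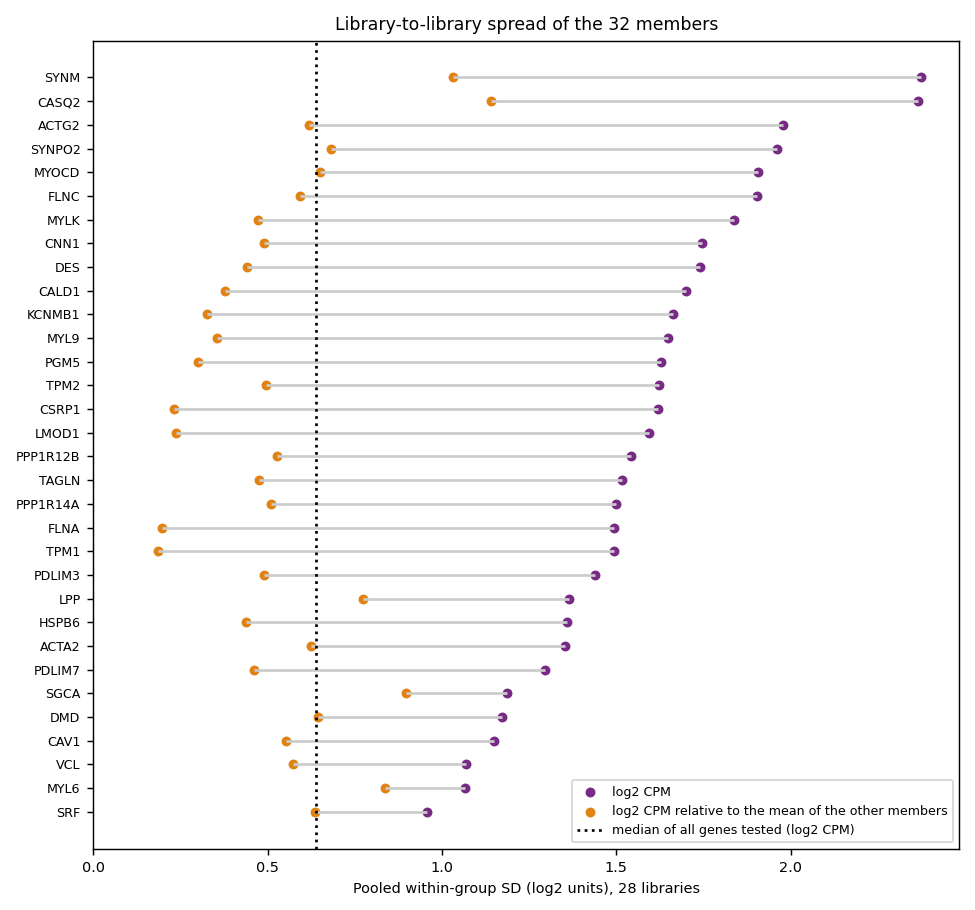
Spread of each of the 32 genes between libraries within groups, as the pooled SD of log2 CPM (purple) and as the SD relative to the mean of the other 31 genes (orange); the dotted line is the median SD of all genes tested, 0.638. Every purple point lies right of the line, and the orange points centre on 0.503.

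Markers of the lining and of connective tissue differed between these same libraries. In Entero native library 4, where all 32 genes were highest, 13 urothelial genes summed to 2272 CPM, against 6471 to 20253 CPM in the other 4 libraries of the group. PRS regenerated library 2 had 783 CPM of them, against 8649 to 9142 CPM in the other 3. SIS native libraries 4 and 5 had 435 and 2462 CPM, against 8848 to 12939 CPM in the other 3. The high-muscle library was not always low in urothelium: PRS native library 2 had 14209.8 CPM of urothelial markers and PRS native library 4, the lowest in muscle, had 4856 CPM. The 10 fibroblast genes summed to 20415 CPM in Entero native library 4, against 3964 to 9118 CPM in the other 4, and to 19862 CPM in PRS regenerated library 2, against 4607 to 7426 CPM in the other 3. Ileum library 2, the lowest ileum graft in muscle, had 7211 CPM of fibroblast markers, against 1223 to 2141 CPM in the other 4. The 10 markers of pericytes and vessel walls, RGS5 among them, ran from 295 to 2447 CPM and stood highest in SIS native library 4. The part of these differences in the muscle values was not tested. In a bulk sample, fewer muscle cells and less RNA per muscle cell cannot be told apart.

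Within animals the whole apparatus tended to move one way, and the way differed between animals of 1 arm. In SIS animals 1 and 2 the regenerated tissue held more of 31 and of 32 genes than the native bladder of the same animal, with median log2 differences (graft minus native) of 0.95 and 1.74. In SIS animals 3, 4 and 5 none of the 32 was higher in regenerated tissue, and the medians were -1.77, -3.41 and -2.64. The PRS arm had 0, 27, 2 and 20 genes higher in regenerated tissue in animals 1 to 4, with medians of -1.40, 0.53, -0.88 and 0.26. The Entero arm had 13, 4, 32, 0 and 11 genes higher in the ileum graft, with medians of -0.20, -1.40, 2.21, -1.73 and -0.22. Thus 8 of the 14 animals had at least 31 of the 32 genes on 1 side, 2 of them with all higher and 5 with none higher in the graft. The genes share their libraries, so these counts are no count of independent events, and each arm held animals with a positive and animals with a negative median.

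**Figure D3:**
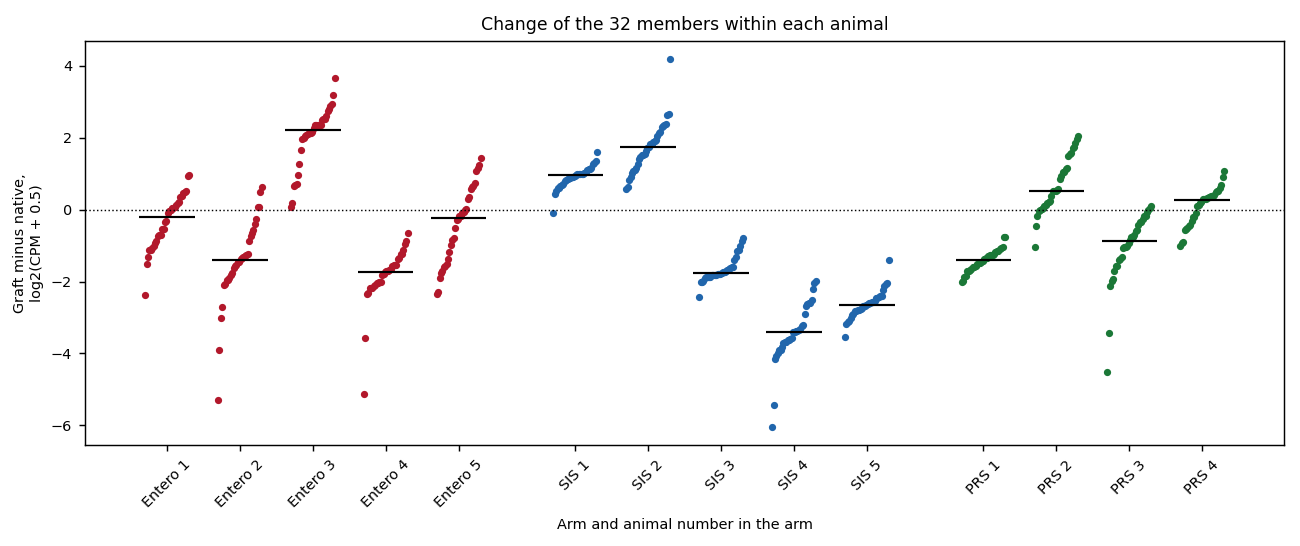
Difference between the graft and the native bladder of each animal, in log2(CPM + 0.5), for the 32 genes (points, sorted by size) and their median (bar). In SIS animals 1 and 2 31 and 32 of the points lie above 0, and in SIS animals 3 to 5 and Entero animal 4 none does; in Entero animal 3 all do.

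Ileum graft against Entero native bladder asks whether bowel placed in the bladder wall carried the contractile apparatus at the level of native bladder. No gene of the 32 passed the test between ileum graft and Entero native bladder by edgeR, DESeq2 or limma, while 15% of all genes tested did by edgeR. At an unadjusted p under 0.05 there was 1 gene, ACTA2, where 28.5% of all genes tested lay. The median log2 fold change was -0.20 over the 32 genes and -0.03 over all genes tested, with 11 of the 32 positive and 21 negative. Leaving out single libraries gave medians of -0.86 to 0.66, and its sign turned without ileum library 2 (0.10) or Entero native library 4 (0.66). The 3 genes of smallest p were ACTA2 at -1.72 (SE 0.81, adjusted p = 0.161), CASQ2 at -2.36 (SE 1.29, adjusted p = 0.236) and VCL (vinculin, of the dense plaque) at -0.72 (SE 0.65, adjusted p = 0.516). By role, log2 fold changes ran from -0.73 to 0.33 in the thick filament and its switch, from -1.72 to 0.99 in the thin filament, from -0.72 to 0.19 in dense bodies and plaques, and from -2.36 to 0.27 in the membrane group. Of 10 pericyte and mural markers 1 passed the test, NOTCH3 (a receptor of vascular mural cells, named after its values were seen). It was lower in ileum grafts, at -2.20 (SE 0.44, adjusted p = 0.00110), and its part in the ACTA2 value was not tested. The 10 markers ran from -2.20 to 1.84 with a median of -0.45, and 3 had an unadjusted p under 0.05. RGS5 had a higher median in ileum grafts, 159 CPM against 55.8 CPM in Entero native bladder, and its groups overlapped. A missed threshold does not show equal levels. The 95% interval of the fold change excluded a 4-fold difference in both directions for 9 of the 32 genes, a 4-fold higher level for 26 and a 4-fold lower level for 15.

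Tissue regenerated on the SIS scaffold had a lower mean than SIS native bladder for all 32 genes, but none passed the test. The median log2 fold change was -1.23, against 0.03 over all genes tested. Leaving out single libraries moved the median of the 32 over the range of -1.52 without SIS regenerated library 2 to -0.81 without SIS native library 4. Single genes ran from -2.30 (CASQ2) to -0.45 (FLNC, filamin C). No gene of the whole table was called in this comparison (0%), and at an unadjusted p under 0.05 there were 0 of the 32 and 4.86% of all genes tested. DESeq2 and limma also called 0 of the 32. The smallest p belonged to CASQ2 at -2.30 (SE 1.28, adjusted p = 1), to PPP1R14A (an inhibitor of the phosphatase that switches myosin off) at -1.55 (SE 0.89, adjusted p = 1) and to PPP1R12B (a subunit of that phosphatase) at -1.41 (SE 0.89, adjusted p = 1). The thick filament group ran from -1.56 to -0.68, the thin filament from -1.48 to -0.84, and dense bodies and plaques from -1.33 to -0.45. The intervals excluded a 4-fold higher level in regenerated tissue for all 32 genes and a 4-fold lower level for 2. As the genes rise and fall together by library, the common sign adds no independent support, and 2 of the 5 animals went the other way.

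By fitted fold change, PRS regenerated tissue gave no common direction against PRS native bladder. Of the 32 genes, 13 had a positive and 19 a negative log2 fold change, with a median of -0.10, against 0.02 over all genes tested. None passed the test by edgeR, DESeq2 or limma. As in the SIS arm, 0% of all genes tested was called, and at an unadjusted p under 0.05 there were 0 of the 32 and 3.62% of all genes tested. The genes of smallest p were DMD (dystrophin, which links actin to the membrane) at 0.77 (SE 0.79, adjusted p = 1), MYL6 at -0.69 (SE 0.72, adjusted p = 1) and PPP1R14A at -0.87 (SE 0.98, adjusted p = 1). The result rested on 1 library. Without PRS regenerated library 2 the median over the 32 genes was -1.70, and ACTA2 moved to -1.38, MYLK to -1.95 and MYOCD to -1.87, still short of the threshold. The median turned positive without any 1 of the other 3 regenerated libraries or without PRS native library 1 or 2, at up to 0.40. The intervals excluded a 4-fold lower level for 12 of the 32 genes and a 4-fold higher level for 18. As a mean of the log2(CPM + 0.5) changes within the 4 animals, only CAV1, DMD, SGCA and VCL were positive. On that scale MYLK stood at -0.55 and MYOCD at -0.54, each higher in the graft in 1 of 4 animals. PPP1R14A and SRF were higher in the graft in 0 of 4. The genes share their libraries, so these signs are not independent.

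**Figure D4:**
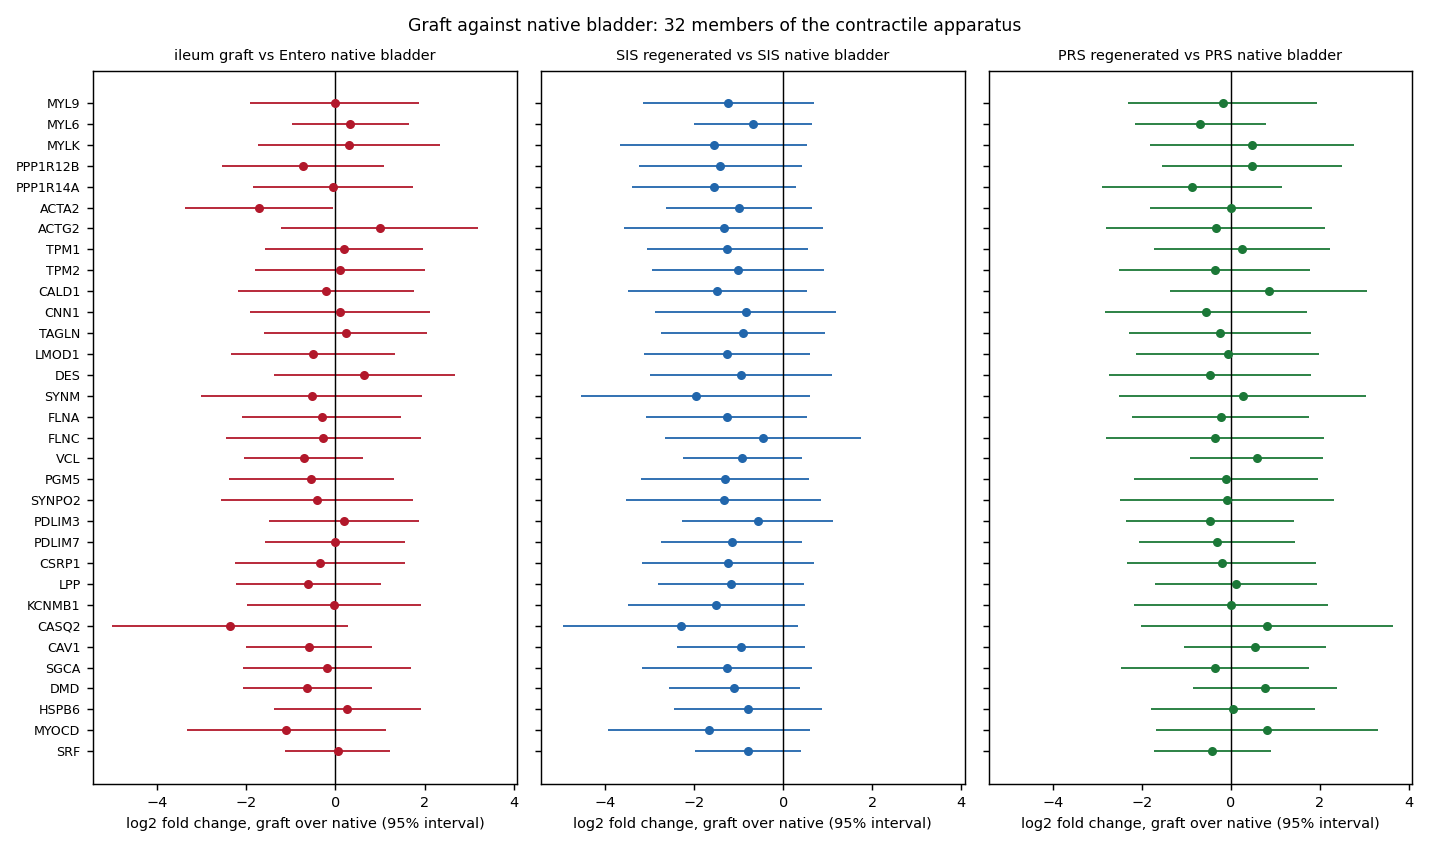
Log2 fold change, graft over native bladder, of the 32 genes in the Entero, SIS and PRS arms with 95% intervals, ordered by role from the thick filament (top) to the transcription factors. All 32 points lie below 0 in the SIS arm, and all intervals but that of ACTA2 in the ileum comparison cross 0.

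Both scaffolds in 1 contrast differed from the native bladder of their animals by a median of -0.67 on the log2 scale over the 32 genes, against 0.02 over all genes tested. All 32 were negative, none passed the test, and 0% of all genes tested was called. At an unadjusted p under 0.05 there were 0 of the 32 and 4.98% of all genes tested. The smallest p belonged to PPP1R14A at -1.21 (SE 0.66, adjusted p = 1), to MYL6 at -0.68 (SE 0.48, adjusted p = 1) and to SRF at -0.60 (SE 0.43, adjusted p = 1). The interval excluded a 4-fold higher level for all 32 genes and a 4-fold lower level for 14. Without PRS regenerated library 2 the median was -1.42, and without PRS native library 2 it was -0.38.

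The grafts were then set against each other. In SIS regenerated tissue against ileum graft, none of the 32 genes passed, where 21.1% of all genes tested did, and 1 of the 32 had an unadjusted p under 0.05, where 34.3% of all did. That gene was ACTA2, at 1.74 (SE 0.81, adjusted p = 0.129), followed by ACTG2 at -1.36 (SE 1.09, adjusted p = 0.402) and PPP1R14A at -1.03 (SE 0.88, adjusted p = 0.436). The median was -0.31, with 8 of the 32 positive, and 0.29 without ileum library 3. In PRS regenerated tissue against ileum graft, none passed by edgeR, where 14% of all genes tested did, and 4 of the 32 had an unadjusted p under 0.05, where 27.9% of all did. These 4 were CASQ2 at 3.59 (SE 1.39, adjusted p = 0.0834), ACTA2 at 2.18 (SE 0.85, adjusted p = 0.0877), DMD at 1.60 (SE 0.75, adjusted p = 0.162) and VCL at 1.42 (SE 0.69, adjusted p = 0.178). DESeq2 called CASQ2 and ACTA2, with adjusted p-values of 0.0275 and 0.0385, and limma with the animal as a random block gave 0.820 and 0.260. Without PRS regenerated library 2 the log2 fold change of ACTA2 was 0.82, and the median over the 32 genes was -1.17, against 0.41 with it.

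PRS regenerated tissue had a higher mean than SIS regenerated tissue for 30 of the 32 genes, with a median log2 fold change of 0.77. None passed the test, 0% of all genes tested was called, and 1 of the 32 had an unadjusted p under 0.05, where 4.44% of all did. It was CASQ2, at 3.09 (SE 1.36, adjusted p = 1). DMD at 1.29 (SE 0.74, adjusted p = 1) and CALD1 (caldesmon, an actin-binding regulator) at 1.68 (SE 1.02, adjusted p = 1) followed. Without PRS regenerated library 2 the median was -0.86, so the order of the scaffolds turned on that library.

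The change from native bladder to graft was also compared between arms, each test taking the difference of the changes itself. Between the SIS change and the Entero change the median over the 32 genes was -0.95 (-1.84 without Entero native library 4 and -0.36 without ileum library 3) and 0 passed, where 6.56% of all genes tested did. The smallest p belonged to ACTG2 at -2.33 (SE 1.53, adjusted p = 0.442), MYLK at -1.86 (SE 1.42, adjusted p = 0.531) and PPP1R14A at -1.49 (SE 1.24, adjusted p = 0.572). Between the PRS change and the Entero change the median was 0.07 and 0 passed, where 3.47% did, with CASQ2 at 3.17 (SE 1.88, adjusted p = 0.425), ACTA2 at 1.72 (SE 1.19, adjusted p = 0.515) and VCL at 1.3 (SE 0.97, adjusted p = 0.555). Between the PRS and the SIS change the median was 1.04, with 0 of the 32 and 0% of all genes called. There DMD at 1.86 (SE 1.06, adjusted p = 1), CASQ2 at 3.11 (SE 1.88, adjusted p = 1) and CALD1 at 2.33 (SE 1.46, adjusted p = 1) had the smallest p. Without PRS regenerated library 2 these medians were -1.56 for PRS against Entero and -0.42 for PRS against SIS. At an unadjusted p under 0.05 there were 0 of the 32 in each of these 3 tests, where 19.5% (SIS against Entero), 16% (PRS against Entero) and 3.98% (PRS against SIS) of all genes tested lay. DESeq2 and limma with the animal as a random block called none either.

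Native bladders were also compared between arms. They came from unmatched animals that also differed in graft, so differences between animals and between arms cannot be told apart here. PRS native against SIS native bladder had a median of -0.38 over the 32 genes (-0.84 without PRS native library 2, and at 0.00310 on the other side of 0 without SIS native library 4), with -0.69 (SE 0.69, adjusted p = 0.951) for VCL as the smallest p, -0.76 (SE 0.87, adjusted p = 0.962) for HSPB6 (a small heat shock protein of relaxing smooth muscle) and -0.63 (SE 0.74, adjusted p = 0.964) for CAV1 (caveolin, of the membrane pits). Entero native against the native bladders of both scaffold arms had a median of -0.46 (-1.30 without Entero native library 4 and -0.21 without PRS native library 2), with SRF at -0.60 (SE 0.52, adjusted p = 1), ACTA2 at -0.74 (SE 0.72, adjusted p = 1) and VCL at -0.46 (SE 0.58, adjusted p = 1). None of the 32 passed in either, where 0% and 0.0466% of all genes tested did, and none had an unadjusted p under 0.05, where 7.02% and 1.89% of all did. DESeq2 and limma called none of the 32 in these comparisons.

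Ratios within a library set 1 gene against another and not against all reads. The ratio of ACTG2 to ACTA2, in CPM and not per length, was 7.22, 0.555, 19.3, 19.2 and 14.3 in ileum grafts, against 1.34, 1.97, 1.74, 2.54 and 1.62 in Entero native bladder. It was 1.42, 1.74, 1.78, 1.62 and 1.45 in SIS regenerated tissue, against 1.3, 1.35, 2.11, 2.27 and 2.07 in SIS native bladder. It was 1.67, 2, 0.606 and 0.861 in PRS regenerated tissue, against 2.24, 2.54, 1.43 and 0.863 in PRS native bladder. In 4 of the 5 Entero animals the ileum graft stood above every bladder library, and ileum library 2, the one low in muscle, stood below all of them. The mean log2 ratio was 2.87 ± 2.16 in ileum grafts and 0.85 ± 0.34 in Entero native bladder (SD, n = 5 each). The difference of 2.03 had a two-sided exact permutation p of 0.0714, or 0.476 adjusted over the 18 ratio tests. Without ileum library 2 it was 2.96, with an adjusted exact p of 0.143. SIS regenerated tissue against ileum graft gave -2.20 (exact p = 0.0476, adjusted 0.476), and PRS regenerated tissue against ileum graft gave -2.67 (exact p = 0.0794, adjusted 0.476).

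DES was also set against VIM, vimentin, the intermediate filament of non-muscle and less mature cells, which is not among the 32 genes, and in the Entero and PRS arms this ratio was high and low in largely the same libraries as DES itself. The DES/VIM ratio of CPM was 7.2, 1.44, 41.4, 27.1 and 25.3 in ileum grafts, against 4.5, 4.25, 9.04, 15.6 and 6.38 in Entero native bladder. SIS regenerated tissue had 9.2, 3.94, 3.41, 2.67 and 5.39, against 5.42, 3.51, 6.79, 15.1 and 11.5 in SIS native bladder, and PRS regenerated tissue had 10.6, 11.1, 1.48 and 1.44, against 21, 19, 5.02 and 1.67 in PRS native bladder. Groups overlapped in each arm. The log2 differences were 0.82, -0.73 and -0.93 in the Entero, SIS and PRS arms, with exact permutation p-values of 0.405, 0.159 and 0.457. Within animals, DES/VIM was lower in the graft in 4 of 4 PRS animals, by -1.76 to -0.21 on the log2 scale. ACTG2/ACTA2 was lower in 4 of 4 as well, by -1.24 to -0.00375, and so all but unchanged in animal 4. The exact sign-flip p of each was 0.125, the smallest that 4 animals allow. KCNMB1, the beta subunit that makes the BK potassium channel of smooth muscle more sensitive to calcium, was set against KCNMA1, the pore. That ratio was 0.443, 0.61, 2.2, 0.972 and 2.71 in ileum grafts, against 1.56, 1.25, 1.19, 1.12 and 1.57 in Entero native bladder. In SIS regenerated tissue it was 0.97, 0.677, 1.49, 1.18 and 0.865, against 1.15, 2.34, 1.27, 1.52 and 0.79 in SIS native bladder. In PRS regenerated tissue it was 0.765, 1.02, 0.749 and 0.811, against 0.616, 1.6, 1.74 and 1.49 in PRS native bladder. The channel ratio overlapped between graft and native bladder in the 3 arms, with exact permutation p-values of 0.595, 0.238 and 0.143. None of the 18 ratio tests passed after adjustment, and the lowest adjusted value was 0.476. The smallest exact p that these group sizes allow is 0.00794 for 5 against 5, 0.0159 for 4 against 5 and 0.0286 for 4 against 4.

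Each gene was also set against the mean of the other 31 in the same library, and at most 1 of the 32 kept 2 groups apart in any comparison and direction. Shares over all genes tested are given beside these, but genes outside the 32 keep the spread of that mean on this scale. Their median SD was 1.62 (those with a mean of at least 5 CPM), against 0.503 for the 32. A low share is thus set by the scale, and the separations are descriptions only. Relative to that mean, TPM1 stood at 2.02, 2.70, 2.25, 2.41 and 2.91 (log2) in ileum grafts, against 1.72, 1.79, 1.75, 1.89 and 1.89 in Entero native bladder, all ileum grafts above all native libraries. CASQ2 stood at -3.45, -5.82, -4.31, -5.57 and -3.91 in ileum grafts, against -2.68, -1.85, -2.29, -2.19 and -2.37 in Entero native bladder, all ileum grafts below. Such a separation was found for 2.53% of all genes tested in the higher and 0.326% in the lower direction. CAV1 stood at -1.09, -1.49, -0.93, -0.65 and -1.10 in SIS regenerated tissue and at -1.54, -1.17, 0.03 and 0.39 in PRS regenerated tissue, against -1.63, -1.88, -1.72, -2.35 and -1.85 in ileum grafts. Both scaffold groups lay wholly above the ileum, as did 0.605% (SIS) and 0.245% (PRS) of all genes tested. TPM1 lay wholly lower in SIS regenerated tissue than in ileum grafts, as did 2.15% of all genes. In PRS regenerated tissue TPM1 stood at 1.91, 2.02, 2.16 and 1.82, against 1.74, 1.64, 1.69 and 1.78 in PRS native bladder, wholly higher by a mean of 0.26, as for 0.0175% of all genes tested. None of the 32 separated SIS regenerated tissue from SIS native bladder in this way, where 0.0757% (higher) and 0.0116% (lower) of all genes tested did, or PRS from SIS regenerated tissue, where 0.00582% did in each direction. On the plain log2 CPM scale none of the 32 genes separated the groups in these comparisons or in the other graft comparisons. All genes tested did so, wholly higher and wholly lower, at 5.52% and 5.86% (ileum against native bladder), 0.623% and 0.524% (SIS against native bladder), 0.792% and 0.408% (PRS against native bladder). Between grafts the shares were 6.24% and 6.33% (SIS against ileum), 5.47% and 5.72% (PRS against ileum), 0.635% and 0.798% (PRS against SIS).

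Among actins and muscle enzymes outside the list, cardiac alpha actin (ACTC1) and muscle creatine kinase (CKM) are given here because of their values, which were seen before they were singled out. ACTC1 had 0.0503, 3.21, 0, 0.57 and 0.0499 CPM in ileum grafts, against 160.4, 97, 457, 2426 and 980.2 CPM in Entero native bladder, with no overlap. Of all genes tested, 5.86% lay wholly lower in ileum grafts in this way. SIS regenerated tissue had 1202, 275, 244, 9.53 and 277 CPM, against 542, 313, 1106, 4463 and 2628 CPM in SIS native bladder. PRS regenerated tissue had 748, 5122, 1.52 and 6.27 CPM, against 1571, 2718, 457 and 8.03 CPM in PRS native bladder. ACTC1 was lower in ileum grafts, by -10.05 (SE 2.12, adjusted p = 0.00169) on the log2 scale, although limma with the animal as a random block gave an adjusted p of 0.165. It was higher in both scaffold grafts than in ileum, at 9.01 (SE 2.04, adjusted p = 0.00255) for SIS and 10.88 (SE 2.20, adjusted p = 0.00132) for PRS, with adjusted p-values of 0.210 and 0.325 in limma with that block. Actin genes have near-identical coding sequence and may share reads, so their values are uncertain, and the part of shared reads was not tested.

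CKM, which recycles ATP in muscle, took the opposite course. It had 17.2, 0.251, 354, 107 and 79.6 CPM in ileum grafts, against 0.831, 0.145, 0, 0 and 0 CPM in Entero native bladder. In the scaffold arms no regenerated library held more than 0.519 CPM of CKM, and no native library more than 0.283 CPM. Ileum library 2 lay at bladder level and the other 4 ileum grafts far above it. The log2 fold change was 9.11 (SE 1.58, adjusted p = 0.000219) for ileum against native bladder, -10.29 (SE 1.69, adjusted p = 9.43e-05) for SIS regenerated tissue against ileum and -9.14 (SE 1.76, adjusted p = 0.000857) for PRS regenerated tissue against ileum. With the animal as a random block in limma the adjusted p-values were 0.0417, 0.0361 and 0.0894. Few reads lie behind the bladder levels of CKM and the ileum levels of ACTC1, so the size of these fold changes depends on the prior count of the fit. Skeletal alpha actin, ACTA1, had 0 to 9.78 CPM in ileum grafts and 0 to 22.2 CPM in Entero native bladder, and MYOD1 had no read in the ileum grafts.

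**Figure D5:**
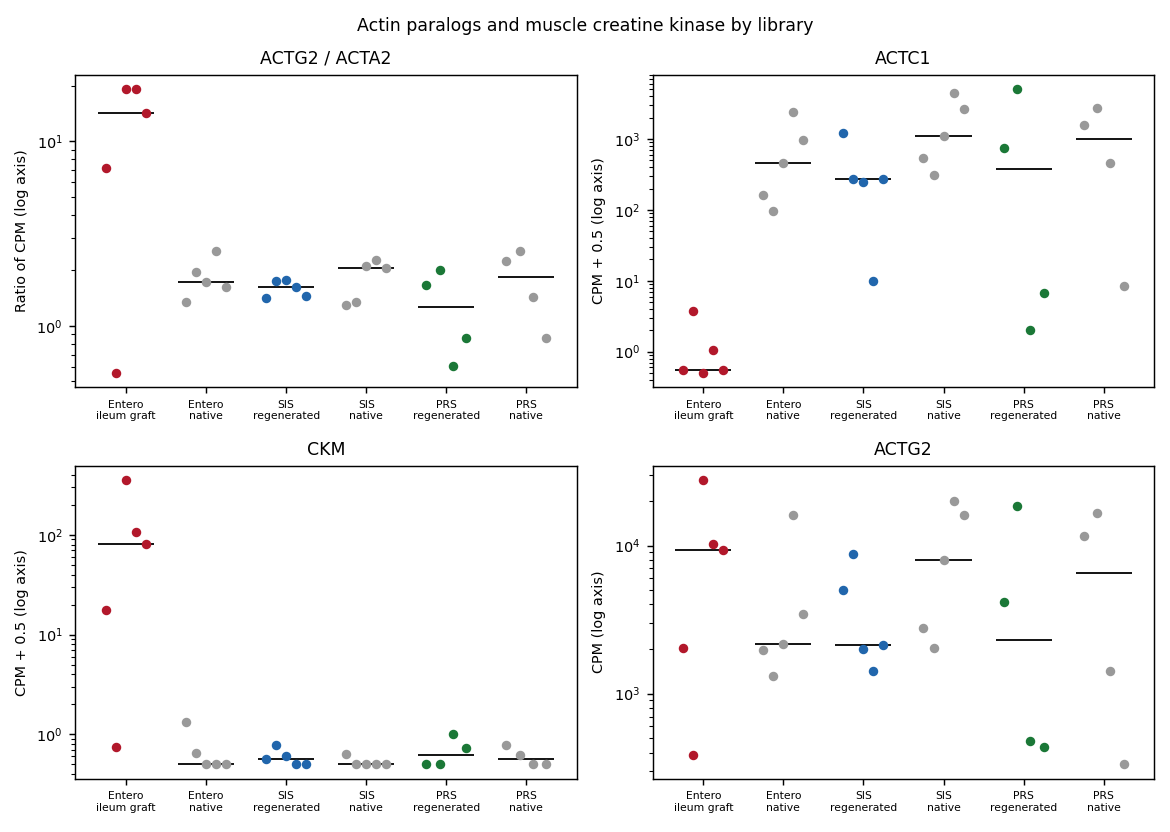
Ratio of ACTG2 to ACTA2 and levels of ACTC1, CKM and ACTG2 in each library, on log axes (0.5 CPM added for ACTC1 and CKM so that 0 can be drawn); points are libraries and bars are group medians. In 4 of the 5 ileum grafts the actin ratio and CKM lie above all bladder libraries, while ACTC1 lies at or under 3.21 CPM in all 5.

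The wider contractile pathway was represented by 55 listed genes, of which 52 had a row and 51 were tested. The list covered ion channels, calcium handling, signalling, matrix anchors, cytoskeletal and heat shock proteins and transcription factors. Between ileum graft and Entero native bladder, where 15% of all genes tested were called, 1 of the 51 was lower and 0 higher. That gene was DAG1, dystroglycan, which ties dystrophin to the matrix, with 87.6, 48, 74.8, 42.9 and 30.6 CPM in ileum grafts, against 138, 105, 134, 90.6 and 145 CPM in native bladder. All ileum grafts lay below all native libraries, as for 5.86% of all genes tested, and the fitted log2 difference of DAG1 was -1.11 (SE 0.30, adjusted p = 0.0121). In SIS regenerated tissue against SIS native bladder, in PRS regenerated tissue against PRS native bladder and in both scaffolds together, 0 of the 51 were called in either direction, as were 0% of all genes tested. At an unadjusted p under 0.05 these 3 comparisons held 1, 0 and 1 of the 51, and 4.86%, 3.62% and 4.98% of all genes tested.

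Between grafts, 2 of the 51 were higher in SIS regenerated tissue than in ileum, where 21.1% of all genes tested were called in either direction. DAG1 was higher at 1.18 (SE 0.30, adjusted p = 0.00628), as was MYH10, a non-muscle myosin heavy chain, at 1.84 (SE 0.48, adjusted p = 0.00741). MYH10 had 96.9, 231, 64.4, 62.9 and 67.8 CPM in SIS regenerated tissue and 74, 199, 54.7 and 56.8 CPM in PRS regenerated tissue, against 39.5, 46.1, 20.4, 24.7 and 15.5 CPM in ileum grafts. All scaffold grafts lay above all ileum grafts, as for 6.24% (SIS) and 5.47% (PRS) of all genes tested. PRS regenerated tissue had 2 of the 51 higher than ileum and 0 lower, where 14% of all genes tested were called. These 2 were MYH10 at 1.72 (SE 0.49, adjusted p = 0.0208) and CACNA1C, the pore of the L-type calcium channel, at 2.30 (SE 0.76, adjusted p = 0.0436). CACNA1C had 47.3, 317, 45.5 and 54 CPM in PRS regenerated tissue, against 29, 7.97, 56.3, 19 and 5.39 CPM in ileum grafts. Without PRS regenerated library 2 the adjusted p was 0.161 for MYH10 in that comparison and 0.400 for CACNA1C, and the call of CACNA1C was also lost without any 1 of ileum libraries 1, 2, 4 and 5, SIS native library 3 and SIS regenerated library 1, and with only the groups compared (adjusted p = 0.137), DESeq2 size factors (0.0518), no low-count filter (0.0501) or limma with the animal as a random block (0.0839). MYH10 lost its call between PRS and ileum without ileum library 5 and with only the groups compared (adjusted p = 0.0625) as well. The calls of DAG1, and of MYH10 against SIS, held without each library in turn.

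The genes outside the list whose levels kept closest to the mean of the 32 were sought among 11159 genes with a symbol and a mean of at least 5 CPM, by the within-group SD of their log2 level relative to that mean over 28 libraries. The nearest was HSPB8, a small heat shock protein, with an SD of 0.247, and only 4 of the 32 genes had a smaller one. PALLD, palladin, an actin-bundling protein, followed at 0.299 and FHL1, a LIM-domain protein of muscle, at 0.306. After them came SPEG_1 at 0.323, SMTNL1 at 0.323, KANK2 at 0.327, DNAJB5 at 0.343 and SVIL, supervillin, at 0.349. The median SD was 1.62 over all genes outside the 32 with a mean of at least 5 CPM, with or without a symbol. HSPB8 ranged from 13.3 to 1082 CPM over the 28 libraries, and FHL1 from 32.4 to 1759.7 CPM. These genes are named for likeness of level over these libraries alone.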

How the data were processed

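Bladder RNA from 28 samples was sequenced from directional, poly-A selected libraries, per the labels' protocols. The authors deposited whole-number read counts per gene with a gene length per row, and the submitters' processing notes name HISAT2 2.0.5, featureCounts 1.5.0-p3 and StringTie 1.3.3b. The sources used here do not state the genome build, annotation or strand setting, so overlapping genes and actin paralogs may share reads. Totals ran from 20975648 to 35669026 counts per library.

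Genes were filtered with filterByExpr (minimum count 10), and 17177 were tested with edgeR 4.0.16 (R 4.3.3) by its quasi-likelihood test, in 1 model of 6 groups with TMM scaling and Benjamini-Hochberg adjustment over these genes at 0.05. In all, 12 contrasts were made. An SE is the absolute log2 fold change divided by the root of F. Levels are CPM on TMM-scaled totals. Per-length levels divide CPM by the gene length that the authors deposited. Spread was computed on log2(CPM + 0.5). Ratios were tested by exact permutation (scipy 1.17.1). The ratios MYH11/MYH10 and TPM2/TPM4 were not analysed here. The alternatives were DESeq2 1.42.0, its size factors, library totals alone, other filters, mitochondrial genes left out, only the groups compared, each library left out, and the animal as a fixed block in edgeR or a random block in limma 3.58.1. Only the edgeR test, in the graft against native contrasts, was tried on simulated counts, with genes drawn independently of each other. The ratio tests, the spreads and the alternative fits were not simulated. Replicates of a group are separate animals, per the labels.

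The labels pair graft and native bladder by animal. Deviations from the group means correlated within an animal between -0.273 and 0.690 and over 0.1 in 8 of 14 animals, and the consensus correlation was 0.0618. The 34 genes and the other lists (55 genes of the wider pathway, and markers of urothelium, fibroblasts and mural cells) were chosen with earlier results of these data known. Named genes were those with values in every library (DES, ACTG2, ACTA2, MYLK, TAGLN, CNN1, LMOD1, MYOCD, SRF), the 3 of smallest p where a comparison had no call, called pathway genes, the 8 genes most alike, the 3 with the widest relative spread, ratio genes and defining markers. CASQ2, PPP1R14A, DMD, VCL, SYNPO2 and other anchors, NOTCH3, ACTC1 and CKM were given further values after these were seen. MRTFA, MRTFB and CAVIN1 were matched by their older symbols. One called gene of the wider pathway is not reported here, and no sequence is printed.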

Additional observations from a re-analysis of the deposited data

Results flagged for a closer look

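In Entero native bladder the MYOCD level of library 4 stood far from the rest of its group, at 68.3 CPM, against 8.48 to 14.4 CPM in the other 4. This is the library in which all 32 contractile genes were highest. The ratio of ACTG2 to ACTA2 of ileum library 2, 0.555, stood far from the other 4 ileum grafts at 7.22 to 19.3. That library was also the lowest ileum graft in DES, ACTG2 and MYOCD. The ratio of KCNMB1 to KCNMA1 of PRS native library 1, 0.616, stood far below the other 3 at 1.49 to 1.74. These were 3 of 72 groups examined for a value far from the others, and chance alone gives about 1 in 20.

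The change of ACTC1 from native bladder to graft differed between arms. The PRS change exceeded the Entero change by 10.35 on the log2 scale (SE 2.61, edgeR adjusted p = 0.0236) and the SIS change exceeded it by 7.87 (SE 2.30, edgeR adjusted p = 0.0367). The change of CKM differed by -8.24 between PRS and Entero (SE 2.23, edgeR adjusted p = 0.0363). With the animal as a fixed block the adjusted p-values were 0.0986 and 0.0616 for ACTC1 and 0.345 for CKM, and many single libraries, left out, also ended these calls.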

How the results depend on the processing

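The count of contractile genes called was 0 in all 12 comparisons and stayed 0 under most alternatives. DESeq2 called 2 of the 32 in PRS regenerated tissue against ileum graft. With library totals alone 1 was called in ileum graft against native bladder, 1 in SIS regenerated tissue against ileum and 2 in PRS regenerated tissue against ileum, and that scaling shifted the median of all genes by -0.42, 0.38 and 0.29. Leaving out single libraries, the median log2 fold change of the 32 genes ranged from -1.70 to 0.40 for PRS regenerated against native bladder, from -1.17 to 0.94 for PRS regenerated tissue against ileum, from -0.86 to 1.14 for PRS against SIS regenerated tissue, from -1.56 to 0.77 for the PRS change minus the Entero change and from -0.42 to 1.61 for the PRS change minus the SIS change. The lowest value of each of these ranges came without PRS regenerated library 2. With the animal as a random block in limma, the replicate block fit, the median was -0.11 for PRS regenerated tissue against ileum and -0.17 for PRS against SIS regenerated tissue, on the other side of 0. That fit models log2 levels where edgeR models counts, so the 2 fits differ in more than the block, and the part of each difference was not tested. The replicate block gave 0 calls among the 32 genes with the animal fixed or random. One or both of its forms ended calls of ACTC1, CKM (in PRS comparisons), CACNA1C (adjusted p = 0.0839), TNNT3 and MYH6, and no other call of a named gene changed with it. With the animal fixed, 2186 of all genes tested were called between ileum graft and native bladder, against 2585 without the block. For single named genes, 61 of 2770 recomputed values lost their call, 4 gained one and 17 moved. No called value changed sign, while values that passed no test did, such as MYLK and MYOCD in PRS regenerated tissue without its library 2.

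Groups of 4 or 5 animals with a median within-group SD of 1.57 (log2) left intervals that excluded a 4-fold difference in both directions for 9 of the 32 genes in ileum, 2 in SIS and 4 in PRS against native bladder.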

Other observations

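Striated muscle genes other than ACTC1 and CKM also differed between ileum graft and native bladder. Of 18 striated muscle genes tested, ACTC1 and CKM included, 1 (CKM) was higher and 4 (ACTC1, NEB, TNNT3 and MYH6) were lower in ileum grafts. These calls are by edgeR with adjustment over all genes tested, where 15% of all genes tested passed. The genes named here were picked after their values were seen. NEB, nebulin, a ruler of the thin filament in striated muscle, had 0, 0, 0, 0.618 and 0.200 CPM in ileum grafts, against 2.06, 1.80, 1.98, 0.615 and 3.98 CPM in Entero native bladder, a log2 difference of -3.63 (SE 0.94, adjusted p = 0.00898). All of these NEB levels were low, at most 3.98 CPM, and ileum library 4 stood just above Entero native library 4. TNNT3, a troponin of fast skeletal muscle, had 0, 0.501, 2.24, 0.570 and 0.349 CPM in ileum grafts, against 12.0, 0.349, 7.06, 32.6 and 14.2 CPM in Entero native bladder, a log2 difference of -4.16 (SE 1.14, adjusted p = 0.0133). Its groups overlapped, and limma with the animal as a random block gave an adjusted p of 0.177. MYH6, a cardiac myosin, was the remaining lower gene. It reached 16.3 CPM in Entero native library 1 and at most 1.35 CPM in the other 4, and limma with the animal as a random block gave an adjusted p of 0.116. In SIS and in PRS regenerated tissue against native bladder, 0 of the 18 and 0% of all genes tested passed by edgeR. At an unadjusted p under 0.05 there were 0 and 1 of the 18, where 4.86% and 3.62% of all genes tested lay.

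Non-muscle counterparts of the contractile genes, MYH10 (called above in scaffold grafts against ileum) among them, gave no call against native bladder. By edgeR 0 of 10 tested passed in ileum, SIS or PRS grafts against native bladder, with 2, 0 and 0 at an unadjusted p under 0.05. Among 4 markers of interstitial cells of Cajal, 0 passed in these 3 comparisons, with 0, 1 and 0 at an unadjusted p under 0.05. Of all genes tested, 15%, 0% and 0% passed in the same comparisons, and 28.5%, 4.86% and 3.62% had an unadjusted p under 0.05 by edgeR.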
